A study of Mus musculus with 2 samples.

Results

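The T-box factors are transcription factors that share a DNA-binding domain, the T-box, and 7 of them were followed here in the cells of the mouse esophagus, stomach and their junction: Tbx1, Tbx2, Tbx3, Tbx4, Tbx5, Tbx18 and Tbx20. They were chosen by name as T-box genes of foregut development, together with their levels and shares of positive cells by cell class, region and stage in these data, and Tbx5 and Tbx18 also because they had been seen to differ between regions. The table holds 12 T-box genes among 19550 genes, so the 7 are a choice from 12. A unique molecular identifier (UMI, 1 counted RNA molecule) of at least 1 of the 7 was found in 2236 of 7808 cells. Because the levels by class, region and stage entered the choice, they are given as a description, without a test.

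All cells came from wild type C57BL/6 mice at 4 stages: embryonic day 15 (E15), embryonic day 19 (E19), pups at day 2 and adults at 8 weeks. At each stage the esophagus, the gastroesophageal squamocolumnar junction (GE-SCJ, where the squamous lining meets the glandular one) and the stomach were cut out, dissociated and tagged, and the tagged pools were sequenced as 1 library of 3′ UMI counts. The design text gives 6, 2, 2 and 3 mice for E15, E19, pup and adult, whereas the methods speak of 3 mice combined. No adult stomach cells are held, which leaves 11 of 12 groups with 143 to 1403 cells and 2302227 to 20070615 UMIs each, a total of 107865155 UMIs and a median of 10424.5 per cell. Mice of a group were pooled before counting, so each group is 1 sample, and the intervals below are exact 95% intervals for counting error only. Cell classes are the authors' labels. The cells labelled as stroma are called fibroblasts here because 5 of 6 fibroblast markers were highest in them. A second stromal label is named as such since the mesothelial markers Upk3b, Wt1, Lrrn4 and Gpm6a were highest there. The other mesothelial markers, Msln and Upk1b, were highest in a second squamous label. No cell barcode was repeated.

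T-box factors bind a short DNA element, of which AGGTGT is one strand of the core, and either activate or repress the genes beside it. Tbx2 and Tbx3 are close relatives that act mainly as repressors, whereas Tbx4 and Tbx5 act in the mesenchyme of the limb and, in the foregut, of the windpipe and lung bud, where Tbx5 works upstream of the ligand Wnt2. Tbx1 is needed for the pharynx and its pouches, Tbx18 for the mesenchyme of the ureter and for the outer layer of the heart, and Tbx20 for heart muscle.

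Several of the 7 genes sit in pairs on the mouse genome (GRCm38, the build of the counts, with positions taken from GENCODE M21 gene models). Tbx2 (chr11:85832551-85841948, plus strand) lies 44473 bases before Tbx4 (chr11:85886422-85916097, plus strand), and Tbx3 (chr5:119670669-119684724, plus strand) lies 147943 bases before Tbx5 (chr5:119832668-119885219, plus strand). The other genes stand apart from these pairs: Tbx1 is at chr16:18580979-18590671, Tbx18 at chr9:87702800-87731260 and Tbx20 at chr9:24718138-24774303, all on the minus strand. RefSeq promoter sequences on GRCm38.p6 were at hand for 4 of the 7 (Tbx1, Tbx4, Tbx18 and Tbx20). The 250 bases before the transcription start are shown for Tbx1 and Tbx18, which were both highest in the esophagus, each 5′ to 3′ on the minus strand. The Tbx1 stretch is chr16:18590672-18590921 and the Tbx18 stretch is chr9:87731261-87731510. Capitals mark AGGTGT.
Tbx1: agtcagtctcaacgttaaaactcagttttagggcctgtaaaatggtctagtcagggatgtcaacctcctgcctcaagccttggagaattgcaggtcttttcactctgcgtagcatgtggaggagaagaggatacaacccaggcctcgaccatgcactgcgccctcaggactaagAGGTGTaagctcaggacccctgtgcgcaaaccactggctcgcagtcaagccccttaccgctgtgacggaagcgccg
Tbx18: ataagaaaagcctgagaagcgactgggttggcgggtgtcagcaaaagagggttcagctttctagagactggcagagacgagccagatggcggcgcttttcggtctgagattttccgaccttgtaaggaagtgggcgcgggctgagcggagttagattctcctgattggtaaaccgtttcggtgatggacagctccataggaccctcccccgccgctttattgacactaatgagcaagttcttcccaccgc
The Tbx1 stretch held AGGTGT once and the Tbx18 stretch held it on neither strand. Over all 32851 promoters of the RefSeq table, 11.8% held AGGTGT or its reverse complement ACACCT in the same 250 bases. The other 2 motifs searched, TGTTTA for FOX factors and AGATAA for GATA factors, were found on either strand in 12.03% and 9.99% of all promoters and in no entry of the 4 members. The entries of Tbx4 and Tbx20, and a second start of Tbx1, held none of the 3 motifs. These matches are letters in a window and say nothing of binding.

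The members divided by cell class. Tbx5 and Tbx18 were genes of the connective tissue, Tbx3 was mostly neural, Tbx2 was spread over fibroblasts, neural cells and adult squamous cells, and Tbx1 lay in squamous cells and in a few endothelial cells. Tbx18 was the most concentrated, with 789 of its 848 UMIs (93.0%) in fibroblasts. Tbx5 had 303 of 410 UMIs (73.9%) in fibroblasts and 88 (21.5%) in smooth muscle. Tbx2 had 1585 of 2252 UMIs (70.4%) in fibroblasts and 233 (10.3%) in neural cells. For Tbx3 the order was the other way round, with 716 of 1176 UMIs (60.9%) in neural cells and 276 (23.5%) in fibroblasts. Tbx1 had 111 of 199 UMIs (55.8%) in squamous cells and 52 (26.1%) in fibroblasts. Tbx4 and Tbx20 were close to undetected, with 22 and 6 UMIs in all 7808 cells, so nothing can be read from their distribution.

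Levels are given as CPM, the usual scaled count: a gene's UMIs relative to all UMIs summed over the cells of a group. They are compared within a gene only, because 3′ counts of different genes are not on 1 scale. Tbx3 stood at 191.2 CPM (177.4 to 205.7) in neural cells, then at 14.0 (9.08 to 20.7) in endothelial cells, 8.50 (7.53 to 9.57) in fibroblasts and 5.345 (4.06 to 6.91) in smooth muscle. The intervals of endothelial cells and fibroblasts overlapped, and the other neighbours in this order did not. Immune cells, taken as the measure of free RNA, held 2.13 CPM of Tbx3 (0.918 to 4.19). Tbx2 was highest in neural cells at 62.2 CPM (54.5 to 70.7) and fibroblasts at 48.8 (46.5 to 51.3), whose intervals did not overlap, and lower in squamous cells at 16.9 (14.5 to 19.7) and smooth muscle at 13.7 (11.6 to 16.1), whose intervals did. Its immune background was 6.11 CPM (3.87 to 9.17).

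For Tbx5, fibroblasts at 9.34 CPM (8.31 to 10.45) and smooth muscle at 8.11 (6.51 to 9.99) could not be told apart by their intervals, and the immune background was 1.33 (0.431 to 3.10). Tbx18 fell from 24.3 CPM (22.6 to 26.1) in fibroblasts to 2.03 (1.27 to 3.07) in smooth muscle, a value whose interval overlapped the immune background of 1.33 (0.431 to 3.10). Tbx1 was at 12.9 CPM (8.19 to 19.4) in endothelial and 10.9 (8.996 to 13.2) in squamous cells, at 1.60 (1.20 to 2.10) in fibroblasts and at 0 of 3763867 UMIs in immune cells, which allows up to 0.797 CPM by the level of 3 counts. The second stromal label, with 139 cells, held between 0 and 4 UMIs of each member.

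**Figure D1:**
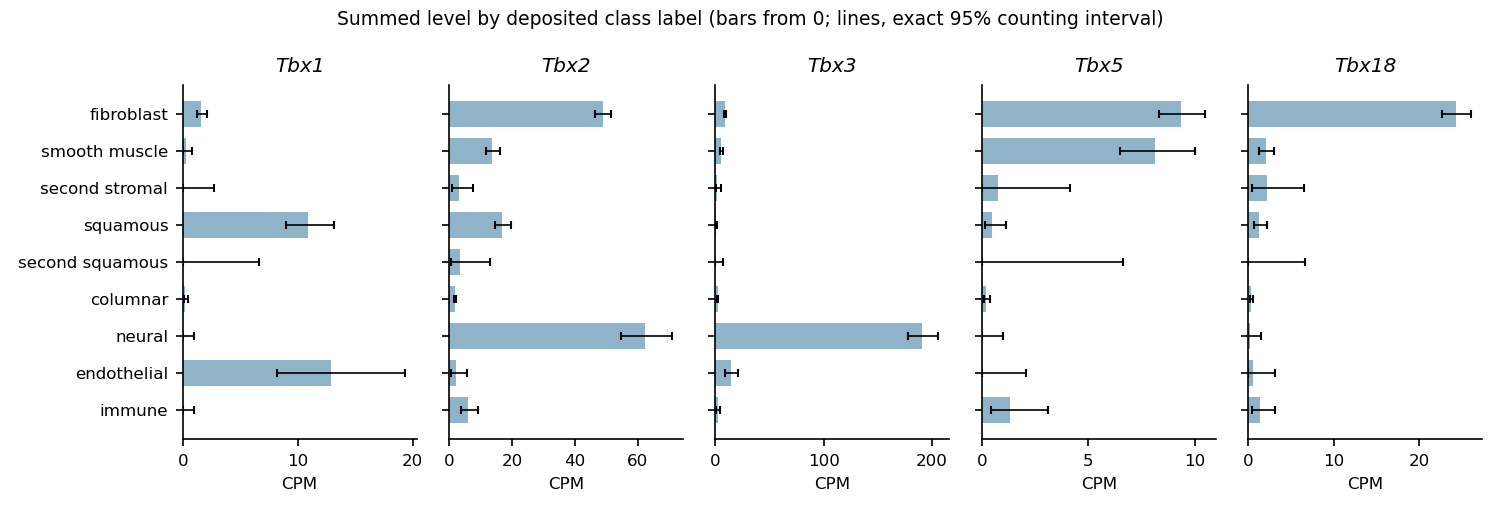
Summed level in CPM (horizontal axis from 0, a separate scale per gene) of 5 T-box genes in each of the 9 deposited cell labels; lines are exact 95% counting intervals. Tbx18 stands highest in fibroblasts, Tbx3 in neural cells at 191.2 CPM, and Tbx1 in squamous and endothelial cells. Tbx5 stands highest in fibroblasts and smooth muscle, whose intervals overlap.

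Shares of cells with at least 1 UMI were set beside those of immune cells. Tbx3 was detected in 258 of 419 neural cells (61.6%, 56.7 to 66.3) against 5 of 354 immune cells (1.41%, 0.460 to 3.27), with median depths of 7900 and 8266 UMIs. Tbx2 was detected in 715 of 3442 fibroblasts (20.8%, 19.4 to 22.2) and in 14 of 354 immune cells (3.95%, 2.18 to 6.55). Tbx18 was detected in 515 fibroblasts (14.96%, 13.8 to 16.2), Tbx5 in 248 (7.21%, 6.36 to 8.12) and Tbx3 in 187 (5.43%, 4.70 to 6.24), each above its immune share of at most 1.41%. When every cell was thinned to 5000 UMIs and 502 shallower fibroblasts were left out, the fibroblast shares were 15.3% for Tbx2, 9.86% for Tbx18, 3.91% for Tbx5 and 3.30% for Tbx3.

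Tbx5, the lung bud and limb factor, was an esophageal gene of the connective tissue. In esophageal fibroblasts it was at 26.5 CPM (21.6 to 32.2) at E15, 22.4 (18.98 to 26.1) at E19 and 15.9 (7.64 to 29.3) in pups. In GE-SCJ fibroblasts it was at 3.45 (1.84 to 5.90) and 1.75 (0.838 to 3.21) before birth and at 0 in pups. Stomach fibroblasts held 2 UMIs at E15 (0.524 CPM), 0 of 6611786 UMIs at E19 (up to 0.454 CPM by 3 counts) and 0 of 446519 in pups (up to 6.72 CPM). The esophageal intervals lay above those of both other regions at E15 and E19, and in pups the depth was 10 UMIs in all. The GE-SCJ intervals at E15 and E19 overlapped the immune background of Tbx5, 1.33 CPM (0.431 to 3.10).

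The log2 ratio of stomach over esophagus for Tbx5, with 1 UMI added to each sum, was -5.09 at E15 (-8.73 to -3.77). At E19, the value of esophageal fibroblasts was 49.3-fold above the stomach set at 3 counts, and in pups 2.37-fold above it. These folds leave out the counting error of the esophagus. The exact upper limits of the log2 ratio of stomach over esophagus were -5.31 at E19 and -0.67 in pups. The esophagus also exceeded the GE-SCJ, by a log2 ratio of GE-SCJ over esophagus of -2.85 (-3.90 to -2.10) at E15 and -3.55 (-4.76 to -2.76) at E19. Within the esophagus, the difference between E19 and E15 was not detectable at this depth (log2 -0.25, -0.62 to 0.13). In 31 adult esophageal fibroblasts the level was 55.7 CPM (25.5 to 106), from 9 UMIs, and in 15 adult GE-SCJ fibroblasts 17.1 CPM (2.07 to 61.6), from 2 UMIs.

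Smooth muscle showed the same regional order for Tbx5 as fibroblasts. In esophageal smooth muscle it was at 33.5 CPM (23.7 to 46.0) at E15, 36.8 (21.4 to 58.9) at E19 and 26.2 (5.40 to 76.5) in pups. In GE-SCJ smooth muscle it was at 6.35 (3.17 to 11.4), 4.55 (2.27 to 8.14) and 0, and in stomach smooth muscle at 0.605 (0.0153 to 3.37), 0 and 0. The log2 ratio of GE-SCJ over esophagus was -2.31 (-3.52 to -1.40) at E15 and -2.97 (-4.25 to -1.84) at E19. At E19 the esophageal value was 23.7-fold above the stomach set at 3 counts. The exact upper limit of the log2 ratio of stomach over esophagus was -4.11. Adult smooth muscle held 4 UMIs of Tbx5 in the esophagus (23.3 CPM) and 3 in the GE-SCJ (28.1 CPM).

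The gene model next to Tbx5, Gm43050, gave a separate readout of the locus. It is a long non-coding RNA on the minus strand (chr5:119828448-119831920) that starts 747 bases before Tbx5 and points away from it, and its UMIs took no part in choosing the members. In esophageal fibroblasts it was at 10.8 CPM (7.72 to 14.6) at E15, 8.60 (6.56 to 11.1) at E19 and 20.7 (11.02 to 35.4) in pups. In the GE-SCJ it held 0, 2 and 0 UMIs at the same stages, and in the stomach it held 0 UMIs at all 3 stages. In fibroblasts its esophageal intervals lay above those of both other regions at E15, E19 and pup. In esophageal smooth muscle it was at 8.82 CPM (4.23 to 16.2) at E15 and 10.8 (3.51 to 25.2) at E19, with 0 UMIs in the stomach at both stages. GE-SCJ smooth muscle held 3 UMIs at E15 (1.73 CPM, 0.357 to 5.06) and 2 at E19 (0.827, 0.100 to 2.99), and the first of these intervals overlapped the esophageal one. Gm43050 was found in 28 of 226 Tbx5-positive esophageal fibroblasts (12.4%, 8.39 to 17.4) and in 75 of 1042 Tbx5-negative ones (7.20%, 5.70 to 8.94), which overlap, and the positive cells were deeper (a median of 10710 against 8289 UMIs). Whether reads of the opposite strand were kept apart in the counting is not given in the sources used here.

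**Figure D2:**
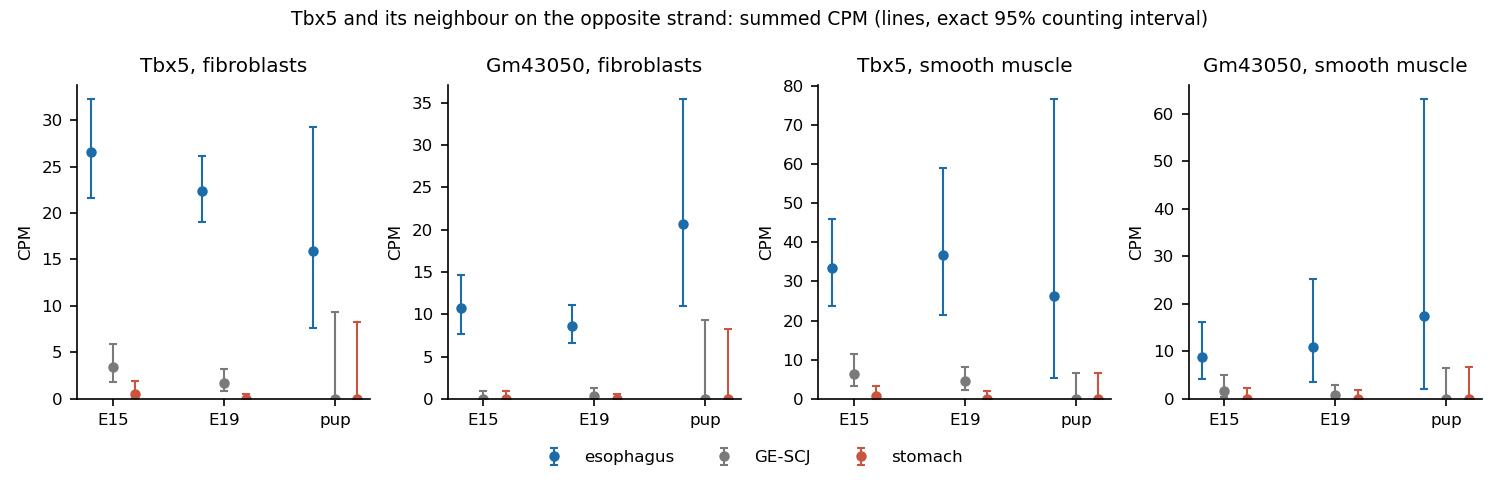
Summed level in CPM (vertical axis from 0, a separate scale per panel) of Tbx5 and of Gm43050, the neighbouring gene on the opposite strand, in fibroblasts and smooth muscle at E15, E19 and pup, by region; lines are exact 95% counting intervals. Esophageal Tbx5 lies between 15.9 and 36.8 CPM and the stomach values lie at or near 0 for both genes.

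Tbx18, the factor of ureter and heart mesenchyme, had the regional order of Tbx5 before birth. In esophageal fibroblasts it was at 73.2 CPM (64.9 to 82.4) at E15, 61.0 (55.4 to 67.1) at E19 and 15.9 (7.64 to 29.3) in pups. In the GE-SCJ it was at 6.37 (4.08 to 9.47), 2.10 (1.08 to 3.67) and 5.08 (0.615 to 18.4), and in the stomach at 4.19 (2.40 to 6.81), 1.97 (1.05 to 3.36) and 0. The GE-SCJ and stomach levels could not be told apart at any of the 3 stages, and before birth both were far under the esophagus. The stomach intervals at E15 and E19 and the GE-SCJ interval at E19 overlapped the immune background of Tbx18, 1.33 CPM (0.431 to 3.10). Stomach over esophagus, the log2 ratio was -4.045 (-4.95 to -3.402) at E15 and -4.85 (-5.88 to -4.17) at E19. The pup esophagus value was 2.37-fold above the stomach set at 3 counts, with an exact upper limit of -0.67 for the log2 ratio. The makeup of the fibroblast label moved with region as well. The summed level of the 6 pericyte markers (genes of the cells around small vessels) was 240.7, 455.0 and 676.5 CPM in esophagus, GE-SCJ and stomach at E15 and 202.7, 473.1 and 508.5 at E19. That of the 6 fibroblast markers was 22547, 11556 and 8946 CPM at E15 and 37284, 17822 and 14513 at E19. Among fibroblasts with fewer than 3 pericyte markers, Tbx18 was at 77.9 CPM (68.6 to 88.1) in the esophagus and 4.55 (1.963 to 8.96) in the stomach at E15, and at 62.0 (56.1 to 68.3) and 2.35 (1.13 to 4.32) at E19. In the same cells Tbx5 was at 26.6 (21.3 to 32.8) and 1.14 (0.138 to 4.11) at E15 and at 22.5 (19.0037 to 26.5) and 0 at E19. The part of the fibroblast markers in these regional differences was not tested.

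From E15 to pup, Tbx18 in esophageal fibroblasts had a log2 ratio of -2.07 (-3.28 to -1.30), whereas that of Tbx5 was -0.61 (-1.84 to 0.20), an interval that includes 0. These intervals overlap, and the difference between the genes was not tested. The cells differed in depth, with a median of 10573 UMIs per esophageal fibroblast at E15 and 3859 in pups, and the part of depth in the change was not tested. Tbx18 was detected in 146 of 347 esophageal fibroblasts at E15 (42.1%, 36.8 to 47.5) and 297 of 739 at E19 (40.2%, 36.6 to 43.8), but in 9 of 151 in pups (5.96%, 2.76 to 11.01). After thinning to 5000 UMIs, the shares were 24.8%, 26.7% and 14.7%, the last from 5 of 34 cells with an interval of 4.95 to 31.1. At equal depth the fall in the share of positive cells was thus not detectable. Esophageal smooth muscle held little Tbx18, at 7.06 CPM (3.05 to 13.9) at E15 and 8.65 (2.36 to 22.2) at E19.

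Within the esophageal fibroblasts, cells with and without Tbx18 did not differ in Tbx5 beyond counting error once depth was equal. At their own depth, Tbx5 was found in 47 of 146 Tbx18-positive cells at E15 (32.2%, 24.7 to 40.4) and in 34 of the 201 Tbx18-negative ones (16.9%, 12.01 to 22.8). After thinning, it was found in 7.50% (2.80 to 15.6) of positive and 9.92% (6.46 to 14.4) of negative cells, from 6 and 24 cells with Tbx5. At E19 the thinned shares were 8.84% (5.14 to 14.0) and 10.3% (7.75 to 13.3). The Tbx18-positive cells were deeper, with a median of 11848 against 9484 UMIs at E15. The part of depth in the excess at full depth was not tested. Fibroblasts that held at least 3 of 6 pericyte markers had less Tbx18 within the esophagus at E15, 44.8 CPM (28.7 to 66.6) in 39 cells against 77.9 (68.6 to 88.1) in 308, while Tbx5 was at 26.1 (14.3 to 43.8) and 26.6 (21.3 to 32.8) in the same cells. At E19 the Tbx18 intervals of the corresponding groups overlapped, at 48.8 (31.2 to 72.6) and 62.0 (56.1 to 68.3).

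**Figure D3:**
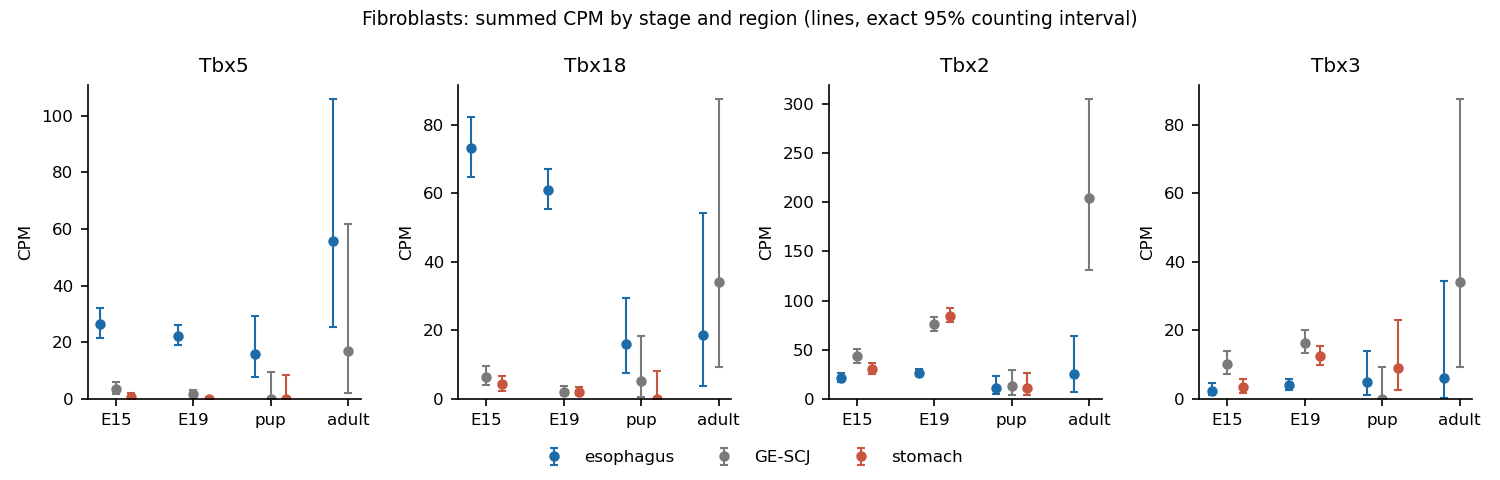
Summed level in CPM (vertical axis from 0, a separate scale per gene) of Tbx5, Tbx18, Tbx2 and Tbx3 in fibroblasts by stage and region; lines are exact 95% counting intervals, and adult values rest on 31 and 15 cells. Tbx5 and Tbx18 stand highest in the esophagus before birth, whereas Tbx2 and Tbx3 stand higher in the GE-SCJ, and at E19 in the stomach, than in the esophagus.

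Tbx2, a repressor that takes part in organ outgrowth, had another regional order. In fibroblasts it was at 21.3 CPM (16.9 to 26.4) in the esophagus, 43.2 (36.9 to 50.4) in the GE-SCJ and 30.4 (25.1 to 36.4) in the stomach at E15. At E19 the levels were 26.5 (22.8 to 30.6), 76.1 (69.1 to 83.5) and 84.7 (77.8 to 92.0). In pups they were 11.1, 12.7 and 11.2 CPM from 7, 5 and 5 UMIs, and the 3 regions could not be told apart. The GE-SCJ was the highest region at E15, with a log2 ratio of 1.02 (0.63 to 1.43) over the esophagus and with the stomach at -0.51 (-0.87 to -0.16) relative to it. At E19 the GE-SCJ and the stomach no longer differed beyond counting error (log2 0.15, -0.03 to 0.34).

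Stomach over esophagus, Tbx2 had a log2 ratio of 0.51 (0.09 to 0.94) at E15 and 1.67 (1.43 to 1.92) at E19. Over time in the stomach, Tbx2 was higher at E19 than at E15 by a log2 ratio of 1.47 (1.19 to 1.78) and lower in pups than at E19 by -2.66 (-4.55 to -1.69). In the esophagus the corresponding ratios were 0.31 (-0.07 to 0.71) and -1.07 (-2.58 to -0.18). In adults, 15 GE-SCJ fibroblasts gave 204.8 CPM (131.2 to 304.7), but all 24 UMIs came from 4 cells, and 31 esophageal fibroblasts gave 24.8 CPM (6.75 to 63.4). By the authors' cell cycle calls, E19 GE-SCJ fibroblasts called G2M held 137.4 CPM of Tbx2 (116.1 to 161.4), against 63.9 (55.1 to 73.7) in G1 and 58.2 (47.2 to 70.9) in S. At E15 in the esophagus, G2M cells held 43.7 (29.3 to 62.8) and G1 cells 16.3 (11.2 to 22.9), while the 3 phases overlapped in the stomach at E15 and E19, in the GE-SCJ at E15 (39.3 in G1, 42.8 in S and 50.2 in G2M) and in the esophagus at E19 (27.3, 21.8 and 29.7). These calls come from other genes' counts, and no cycling is read from them.

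Tbx3, the close relative of Tbx2, had its highest fibroblast level at E15 in the GE-SCJ, and at E19 the GE-SCJ and stomach could not be told apart. It was at 2.36 CPM (1.08 to 4.48) in the esophagus, 10.1 (7.13 to 13.8) in the GE-SCJ and 3.405 (1.81 to 5.82) in the stomach at E15, and at 4.01 (2.67 to 5.80), 16.4 (13.3 to 20.1) and 12.4 (9.86 to 15.4) at E19. The GE-SCJ interval lay above both others at E15, and at E19 it lay above the esophagus only. For GE-SCJ over esophagus the log2 ratio was 1.98 (1.02 to 3.33) at E15 and 2.00 (1.41 to 2.70) at E19, and that of stomach over esophagus 0.48 (-0.81 to 1.93) and 1.60 (0.99 to 2.30). In the stomach the level was higher at E19 than at E15 by a log2 ratio of 1.77 (1.01 to 2.83). Pup fibroblasts held 3, 0 and 4 UMIs in the 3 regions.

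Tbx2 was found in a larger share of Tbx3-positive than of Tbx3-negative fibroblasts in the GE-SCJ and stomach at E19, also at equal depth. In E19 stomach, Tbx2 was present in 45 of 53 Tbx3-positive fibroblasts (84.9%, 72.4 to 93.25) and in 25.6% (22.3 to 29.2) of the Tbx3-negative ones. Thinned to 5000 UMIs, the shares were 65.5% (45.7 to 82.1) and 21.4% (18.2 to 24.9). In E19 GE-SCJ the thinned shares were 55.6% (38.1 to 72.1) and 19.3% (15.9 to 23.0). At E15 in the GE-SCJ the full-depth shares were 63.3% (43.9 to 80.1) and 20.6% (16.3 to 25.5), while the thinned intervals overlapped, with 5 of 14 positive cells. In the E19 esophagus the thinned intervals overlapped as well, at 30.0% (6.67 to 65.2) and 11.8% (9.49 to 14.5).

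Some of the Tbx3 of the fibroblast label lay in cells with markers of interstitial cells of Cajal, the pacemaker cells of the gut wall. In 166 fibroblasts with at least 3 of the 4 markers Kit, Ano1, Etv1 and Gja1, Tbx3 was at 25.6 CPM (18.5 to 34.4), against 7.57 (6.63 to 8.61) in the other 3276. Within E19 GE-SCJ the values were 51.9 (32.9 to 77.9) in 41 cells and 13.5 (10.5 to 17.0) in 547. In the E19 stomach they were 18.1 (7.79 to 35.6) in 51 cells and 11.996 (9.42 to 15.1) in 650, which overlap. Of the 166 cells, 122 stood at exactly 3 markers, and Gja1 is itself a known target of Tbx2 and Tbx3. Across the labels, Kit was highest in columnar cells, Ano1 in the second stromal label, Etv1 in neural cells and Gja1 in squamous cells. None of the markers alone thus marks the pacemaker cells in these data.

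The members' regional differences can be set beside those of all genes. A gene was counted as higher in a region when its log2 ratio reached 1 with at least 100 UMIs over both groups. At E15, 3 members had enough UMIs (Tbx2, Tbx5 and Tbx18): Tbx5 and Tbx18 were higher in the esophagus, as were 2.59% of 8450 genes, and none was higher in the stomach, as were 2.45%. At E19, 4 members had enough: Tbx5 and Tbx18 were higher in the esophagus, where 3.05% of 10009 genes were, and Tbx2 and Tbx3 were higher in the stomach, where 4.11% were. In pups no member had 100 UMIs, and the shares of 1830 genes were 3.33% higher in the esophagus and 2.08% in the stomach. Levels by region and stage entered the choice of all members, and for Tbx5 and Tbx18 the regional difference itself did. Nothing is read from these counts of members. With equal weight for E15, E19 and pup, the mean log2 ratio of stomach over esophagus was -5.09 for Tbx5 (counting SE 0.75), -3.96 for Tbx18 (0.53), -3.04 for Tbx1 (0.82), 0.75 for Tbx2 (0.27) and 0.96 for Tbx3 (0.39). The values of Tbx5, Tbx18 and Tbx1 include stomach groups at 0 UMIs and so depend on the added UMI. The mean log2 ratio of pup over E15 across the 3 regions was -1.15 for Tbx2 (counting SE 0.33), -0.95 for Tbx18 (0.59), 0.12 for Tbx5 (0.76), 0.29 for Tbx3 (0.62) and 1.82 for Tbx1 (0.82). All but that of Tbx2 rest on groups of 0 to 4 UMIs, where the UMI added to sums of unequal depth can set the sign, and no direction is read from them. That of Tbx2 turned to 0.22 when the fibroblast and smooth muscle labels were joined, and its ratio of stomach over esophagus went to 1.34.

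The place of the GE-SCJ between the other regions also differed among members. Of all genes past the fold, the GE-SCJ level lay between esophagus and stomach for 77.0% at E15 and 70.9% at E19, with a median position of 0.790 and 0.885 on a scale where 0 is the esophagus and 1 the stomach. Tbx5 lay between at both stages, at 0.887 and 0.922, and so did Tbx18, at 0.968 and 0.998. The GE-SCJ intervals of Tbx5 at both stages and of Tbx18 at E19 overlapped the immune background, 1.33 CPM (0.431 to 3.10) for each gene. No intermediate level is read from those positions. Tbx2 stood above both regions at E15 and between them at E19 (0.851). Tbx3 stood above both at E15. At E19 its GE-SCJ value was the highest but could not be told apart from the stomach (log2 of stomach over GE-SCJ -0.40, -0.85 to 0.04). At E15 Tbx2 was not past the fold (log2 0.51) and Tbx3 held fewer than 100 UMIs. The share over genes past the fold is thus no background for either at that stage.

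Partners and targets of the T-box factors were followed as lists of known genes, chosen with earlier results of these data known. Of 9 partner genes, 5 had enough UMIs at E15, of which 3 were higher in stomach fibroblasts and 1 in the esophagus, with a median log2 ratio of 1.82 against 0.11 over all genes tested. At E19, 4 of 6 were higher in the stomach and 0 in the esophagus, with a median of 1.69 against 0.14. In pups, none of the 9 had enough UMIs. Of 9 known targets, 3 of 4 tested at E15 and 3 of 5 at E19 were higher in the stomach, 0 and 1 in the esophagus, with medians of 1.14 and 1.09, and in pups the 1 tested was higher in the stomach. Of 12 regulators of foregut mesenchyme, 3 of 10 tested at E15, 5 of 10 at E19 and 1 of 5 in pups were higher in the stomach, and 2, 2 and 0 in the esophagus, with medians of 0.21, 1.05 and 0.65. The median over all genes in pups was 0.04. Of all genes tested, 2.45% were higher in the stomach and 2.59% in the esophagus at E15. The shares were 4.11% and 3.05% at E19, and 2.08% and 3.33% in pups. Because of how the lists were chosen, their counts are a description.

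Of the listed genes with enough UMIs at all 3 stages, Barx1, the homeobox gene of stomach mesenchyme, was the one past the fold at E15, E19 and pup. Of 1813 genes tested at all 3, 7 were higher in the stomach and 13 in the esophagus each time, and most listed genes were too sparse in pups to be tested. Its log2 ratios were 3.15, 3.29 and 4.09, from 64.8, 40.1 and 14.3 CPM in the esophagus to 576.2, 393.2 and 268.7 in the stomach. The following 3 were picked after their values were seen. Wnt2, the ligand downstream of Tbx5, was at 19.2, 3.45 and 0.786 CPM in esophagus, GE-SCJ and stomach at E15. At E19 it was at 22.8, 2.10 and 1.21. It held 1 UMI or less per region in pups and had too few UMIs at E15 to be tested. At E19 it was the 1 of 5 tested targets that was higher in the esophagus. Fgf10, Bmp4 and Gja1 were higher in the stomach at E19, by log2 ratios of 1.09, 1.69 and 2.65. Cdkn1a was not past the fold (0.41). A link between Tbx5 and Wnt2 was not tested. Isl1, a LIM homeobox factor that works with T-box factors in the heart, had the opposite regional order to Wnt2. In esophagus, GE-SCJ and stomach it was at 10.2, 105.6 and 202.7 CPM at E15 and 5.59, 103.7 and 144.4 at E19. Hand2, another heart factor, was at 10.5, 51.5 and 109.5 CPM at E15 and 4.73, 45.3 and 60.5 at E19.

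Neural cells were the main site of Tbx3. Its level by region and stage ran from 112.6 CPM (56.2 to 201.4, 11 cells) in the E19 esophagus to 300.8 (203.0 to 429.5, 20 cells) in the pup stomach. In the esophagus, GE-SCJ and stomach it was at 239.4 (207.3 to 275.0), 199.5 (160.6 to 244.9) and 134.0 (111.6 to 159.5) at E15, at 112.6, 157.4 (128.2 to 191.3) and 236.4 (194.6 to 284.4) at E19, and at 291.5, 195.7 and 300.8 in pups. By value, the order of regions thus ran from esophagus to stomach at E15 and from stomach to esophagus at E19. Esophagus and GE-SCJ could not be told apart at either stage. Their log2 ratios of GE-SCJ over esophagus were -0.25 (-0.64 to 0.10) and 0.37 (-0.42 to 1.53). The E19 esophagus rests on 11 UMIs. The log2 ratio of stomach over esophagus was -0.83 (-1.17 to -0.51) at E15, 0.96 (0.18 to 2.11) at E19 and 0.05 (-0.73 to 0.83) in pups.

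Tbx2 in neural cells had its highest values at E15, which exceeded E19 beyond counting error in the stomach only. In esophagus, GE-SCJ and stomach it was at 102.2 CPM (81.7 to 126.4), 63.6 (42.6 to 91.3) and 71.3 (55.2 to 90.5) at E15, at 51.2 (16.6 to 119.4), 39.0 (25.2 to 57.5) and 40.1 (24.1 to 62.6) at E19, and at 9.72, 27.95 and 0 in pups from 1, 2 and 0 UMIs. Tbx3 did not follow this order, with pup levels at or above most earlier ones. The 12 adult neural cells of the esophagus held no UMI of either gene in 23028 UMIs, which allows up to 130.3 CPM. Neural cells with at least 3 of 6 neuronal markers, a list chosen after the values were seen, held 88.4 CPM of Tbx2 (74.65 to 103.8) and 225.4 of Tbx3 (203.2 to 249.4), and the other 285 held 41.3 (33.1 to 51.0) and 163.8 (146.9 to 182.2). Within E15 the neuronal marker cells held 104.4 of Tbx2 (87.5 to 123.7) in 98 cells and the rest 49.8 (36.6 to 66.2) in 104. At E19 the Tbx2 intervals overlapped, at 35.4 (18.9 to 60.6) and 42.6 (29.8 to 58.9), while those of Tbx3 were 237.0 (189.9 to 292.4) and 161.9 (135.9 to 191.4). In 307 cells with at least 3 of 6 glial markers, a list chosen in the same way, Tbx3 was at 156.7 (141.6 to 172.8) and Tbx2 at 42.2 (34.6 to 51.0), so both genes were present in cells with glial markers too. The 307 cells outnumber the 285 below the neuronal limit, so some cells count in both marker groups.

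Tbx3os1, a non-coding gene on the opposite strand (chr5:119570130-119671365) that overlaps the 5′ end of Tbx3, was also measured in neural cells. In the E15 esophagus, GE-SCJ and stomach it was at 38.5 CPM (26.3 to 54.3), 32.9 (18.4 to 54.2) and 31.9 (21.5 to 45.5), and in pups at 97.2 (46.6 to 178.7), 111.8 (48.3 to 220.3) and 230.6 (146.2 to 346.1). At E19 it was at 143.3 (78.3 to 240.4), 18.7 (9.66 to 32.7) and 48.5 (30.8 to 72.8), the first from 11 cells. It was found in 94 of 258 Tbx3-positive neural cells (36.4%, 30.6 to 42.6) and in 20 of 161 Tbx3-negative ones (12.4%, 7.76 to 18.5), with median depths of 8731 and 6869 UMIs. Because the 2 genes overlap and the use of strand is not given, their reads may not be fully separate. Neural cells held no UMI of Tbx5 or Tbx1 in 3745056 UMIs, which allows up to 0.801 CPM by the level of 3 counts.

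Tbx1 was a squamous gene of the esophagus. Esophageal squamous cells had a Tbx1 level of 17.3 CPM (10.1 to 27.7) at E15, 21.1 (14.7 to 29.4) at E19, 38.5 (24.2 to 58.3) in pups and 7.79 (5.04 to 11.5) in adults. In GE-SCJ squamous cells it was at 6.64 (2.43 to 14.4), 6.38 (1.32 to 18.7), 1.53 (0.0386 to 8.50) and 0.646 (0.0163 to 3.60). Each esophageal value was above that of the GE-SCJ, with intervals apart in pups and adults only. As log2 ratios of GE-SCJ over esophagus these were -1.24 (-3.01 to 0.03) at E15, -1.35 (-4.07 to -0.06) at E19, -3.72 (-10.0 to -2.03) in pups and -2.65 (-8.95 to -0.98) in adults. The pup level exceeded the adult level in the esophagus, with a log2 ratio of adult over pup of -2.31 (-3.19 to -1.41). A second squamous label, with 29 cells in the pup esophagus, held 0 Tbx1 UMIs there. With both squamous labels joined, an alternative chosen after the values were seen, the pup esophagus was at 22.6 CPM (14.2 to 34.2) and the E19 esophagus at 20.5 (14.3 to 28.5), and the log2 ratio of adult over pup was -1.55 (-2.42 to -0.64). The pup ratio of GE-SCJ over esophagus was then -2.99 (-9.29 to -1.29). In adults all 25 esophageal UMIs of Tbx1 came from the 177 cells with at least 3 of 6 basal markers, a list chosen after the values were seen, at 11.8 CPM (7.65 to 17.5), against 0 in the other 55 cells, whose interval reaches 3.37 CPM.

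Outside the squamous cells, Tbx1 was found in the lymphatic part of the endothelium, where it is known to act. All 23 endothelial UMIs lay in the 15 cells with at least 3 of the 5 markers Prox1, Lyve1, Flt4, Pdpn and Ccl21a, of which 13 were positive, at 186.9 CPM (118.5 to 280.4). The other 142 endothelial cells held 0 of 1657851 UMIs. Only 1 of the 15 cells stood at exactly 3 markers. In fibroblasts, Tbx1 was at 4.20 CPM (2.40 to 6.82) in the esophagus at E15 and at 4.44 (3.02 to 6.31) at E19, against 1 UMI each in GE-SCJ and stomach at E15 and 0 in both at E19. Esophageal smooth muscle held 0 Tbx1 UMIs at all 4 stages, which at E15 allows up to 2.65 CPM.

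Tbx2 appeared in squamous cells in the adult. Its level was 2.04, 1.21, 0 and 38.6 CPM at E15, E19, pup and adult in the esophagus, from 2, 2, 0 and 124 UMIs, and 7.74, 2.13, 6.103 and 19.4 CPM in the GE-SCJ, from 7, 1, 4 and 30 UMIs. Joining the second squamous label put 2 UMIs into the pup esophagus (2.06 CPM, 0.249 to 7.43). The adult esophageal interval, 32.1 to 46.1, lay above all earlier ones. That of the adult GE-SCJ, 13.1 to 27.6, lay above the GE-SCJ interval of E19 and overlapped those of E15 and pup. The intervals of the earlier values all overlapped the immune background of 6.11 CPM (3.87 to 9.17). Adult over E15, the log2 ratio was 3.67 (2.36 to 7.31) in the esophagus and 1.18 (0.11 to 2.75) in the GE-SCJ. Adult over pup, it was 1.39 (0.16 to 3.63) in the GE-SCJ. In adult esophagus the level was 35.5 (27.9 to 44.4) in basal marker cells and 44.8 (33.1 to 59.2) in the others, which overlap. Tbx2 was found in 75 of 232 adult esophageal squamous cells (32.3%, 26.3 to 38.8) at a median depth of 9974 UMIs.

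**Figure D4:**
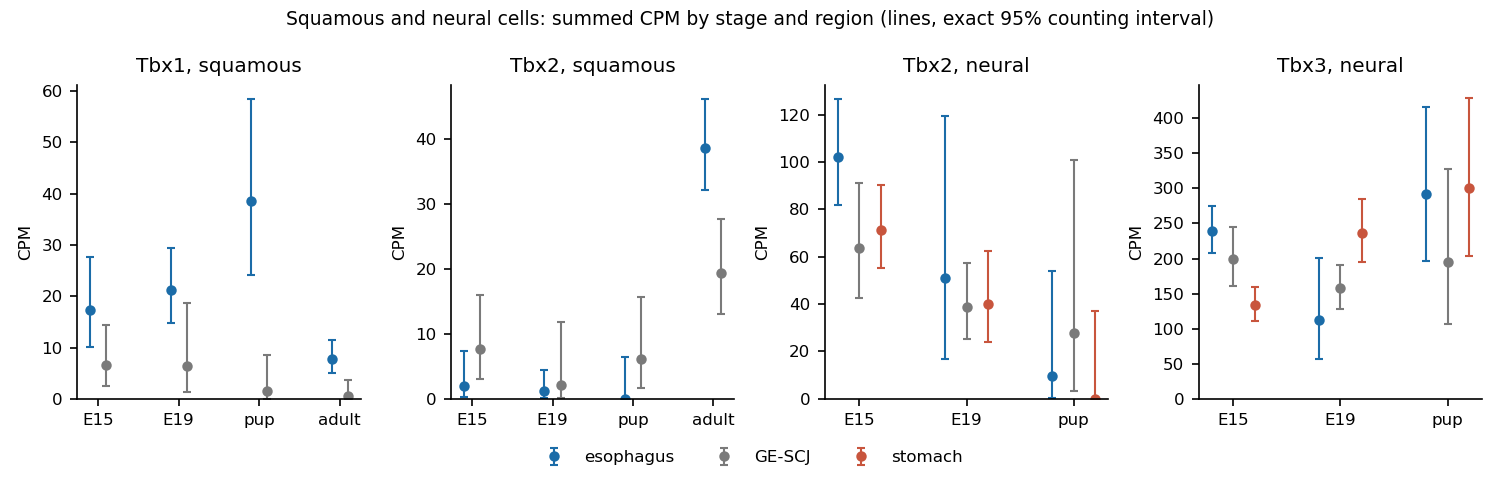
Summed level in CPM (vertical axis from 0, a separate scale per panel) of Tbx1 and Tbx2 in squamous cells of the esophagus and GE-SCJ at 4 stages, and of Tbx2 and Tbx3 in neural cells of 3 regions at E15, E19 and pup; lines are exact 95% counting intervals. Squamous Tbx2 stands at 38.6 CPM in the adult esophagus, and Tbx1 in pup esophagus is at 38.5 without the second squamous label (22.6 with it). Neural Tbx2 in pups, from 1, 2 and 0 UMIs in esophagus, GE-SCJ and stomach, lies below E15 beyond counting error in esophagus and stomach only. No neural Tbx3 value in pups lies below E15 beyond counting error.

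Tbx2 also stood out in postnatal smooth muscle. Before birth it was between 3.46 and 8.65 CPM in the smooth muscle of all 3 regions, near the immune background of 6.11 CPM (3.87 to 9.17). In pups it was at 54.4 (37.0 to 77.2) in the GE-SCJ and 77.0 (55.8 to 103.8) in the stomach, with 0 of 114633 UMIs in 22 esophageal cells, and in adults at 122.5 (75.85 to 187.3) in the esophagus and 56.2 (20.6 to 122.3) in the GE-SCJ. The log2 ratio of pup over E19 was 3.66 in the stomach. The makeup of the label moved with it: the summed CPM of the 6 fibroblast markers in stomach smooth muscle was 3365 at E19 and 8699 in pups, and that of the 6 pericyte markers 297.3 and 2220. Within pup GE-SCJ smooth muscle, Tbx2 was at 53.9 (21.7 to 111.0) in 23 cells with at least 3 pericyte markers and at 54.6 (35.0 to 81.2) in the other 96. In pup stomach the values were 95.3 (57.4 to 148.8) and 66.9 (42.8 to 99.5), which overlap. Cells below that limit thus held Tbx2 as well, but the limit is a range of markers and does not separate cell types. In adult smooth muscle the pericyte markers summed to 4096 CPM in the esophagus and 1966 in the GE-SCJ, against 300.6 and 324.3 at E19. The part of the fibroblast and pericyte markers in the postnatal levels was not tested.

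The genes whose pattern was most like each member were found by Pearson's r of log2(CPM + 10) over 55 groups of label, region and stage with at least 20 cells, among 11672 genes with at least 500 UMIs. These groups share 1 library and differ in depth, and r is a description. For Tbx5 the nearest 5 included the homeobox gene Nkx6-1 (0.90), the forkhead gene Foxc1 (0.86), Prrx1 (0.81) and Fam124a (0.79). For Tbx18 they included Col6a6 (0.83), Tmem132c (0.81), Thbs4 (0.79) and Kera (0.74). For Tbx1 they were the forkhead gene Foxe1 (0.82), Pax9 (0.78), the collagens of the epithelial base Col17a1 (0.75) and Col7a1 (0.74), and Cyp2f2 (0.71). For Tbx3 they were Hey2 (0.94), the neural crest factors Sox10 (0.94) and Foxd3 (0.93), Gm12688 (0.93) and Lrrc4b (0.92). For Tbx2 they were Dach1 (0.77), Npr3 (0.72), Wasf3 (0.71), Zfp536 (0.71) and Loxl3 (0.69).

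Among the members themselves, r was 0.73 for Tbx5 with Tbx18, 0.48 for Tbx2 with Tbx3, and between -0.22 and 0.09 for Tbx1 with Tbx2, Tbx3, Tbx5 or Tbx18. With 22 and 6 UMIs, Tbx4 and Tbx20 gave ranks that carry no information and are not listed. Tbx4 had 8 UMIs in E19 esophageal fibroblasts (1.15 CPM) and 5 in adult esophageal smooth muscle (29.2 CPM), and 0 in all fibroblasts at E15. The other T-box genes of the table were Mga with 8021 UMIs, Tbx6 with 50, Tbx15 with 12, Eomes with 5 and Tbr1 with 4. Of these, Mga alone had enough UMIs between regions, and its log2 ratios of stomach over esophagus were 0.38, 0.15 and -0.23 at E15, E19 and pup, none past the fold.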

How the data were processed

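Gene expression was measured as UMI counts in single cells of 1 pooled library, with a second library of cell tags. The authors aligned reads with Cell Ranger 6.1.1 to mm10 (per the labels), assigned cells to region and stage by tag, filtered them and deposited raw counts without normalization, together with a class label, a cell cycle call and the percent of mitochondrial UMIs that the authors computed for each cell. In all 7808 cells the tag and UMI total equalled the deposited ones.

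The 7 members and all gene lists were chosen with earlier results of these data known. Counts were summed over the cells of a label, region and stage and divided by their total to give CPM with exact Poisson intervals at 95%, and shares were given exact Clopper-Pearson intervals. Log2 ratios had 1 UMI added to each sum, with an exact interval conditional on both counts, and a sum of 0 was compared at 3 counts. Reads from 1 PCR pool are collapsed by UMI, and intervals and floors cover counting error only. Mice were pooled, so no test was run, and a gene counted as past the fold at a log2 ratio of 1 with at least 100 UMIs over both groups. Thinning drew 5000 UMIs from each cell with seed 1. Doublets were not called here, since cells had passed the authors' tag and quality filters. Named genes are the 7 members, any listed gene past the fold at 3 stages and the 5 nearest genes of a member, and others were picked after their values were seen. Some results under this rule are not reported here. The ratios and their intervals were tested on simulated Poisson counts, the counting error that the intervals assume. That simulation held no clumping of UMIs within cells and no difference between mice, so it does not check the intervals for either. Alternatives changed the averaging, the cell filter, the library size, the labels joined, the fold, the UMI minimum, the UMIs that make a cell positive and the pattern scale, and joining both squamous labels was added after the data were seen. Software was Python 3.11.15 with scipy 1.17.1, numpy 2.4.6, matplotlib 3.10.9 and pandas 2.3.3.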

Additional observations from a re-analysis of the deposited data

Results flagged for a closer look

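In pups of the GE-SCJ and stomach, Tbx2 differed from its prenatal level in opposite directions in fibroblasts and smooth muscle. In the GE-SCJ its log2 ratio of pup over E15 was -1.51 in fibroblasts and 3.80 in smooth muscle, and that of pup over E19 was -2.32 and 3.63. In the stomach the ratios of pup over E15 were -1.19 and 3.22, and those of pup over E19 were -2.66 and 3.66. The prenatal smooth muscle values of Tbx2 were near its immune background of 6.11 CPM (3.87 to 9.17). The summed pericyte and fibroblast markers were higher in the smooth muscle label of the same pup groups, and their part in the ratios was not tested.

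Tbx3 in the GE-SCJ also ran in opposite directions, since E19 against E15 gave log2 ratios of 0.68 in fibroblasts and -1.31 in smooth muscle, and pup against E19 gave -2.71 and 2.09. The fibroblast value of -2.71 rests on 0 UMIs in pups and on the UMI added to each sum. In neural cells the regional order of Tbx3 turned between stages: the log2 ratio of stomach over GE-SCJ was -0.58 at E15 and 0.59 at E19, and that of stomach over esophagus -0.83 at E15 and 0.96 at E19, where the esophagus had 11 cells. Each group was 1 pool of mice, so none of these differences between classes or stages was tested.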

How the results depend on the processing

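Of 98 values under another setting, 63 stayed within the main interval or within 1.5 times the main count, 34 moved and 1 reversed. With fibroblast and smooth muscle labels joined, the mean log2 ratio of pup over E15 for Tbx2 turned from -1.15 to 0.22, and its ratio of stomach over esophagus moved from 0.75 to 1.34. The other 24 of 25 regional and 24 of 25 stage ratios stayed within their intervals. Genes past the fold numbered 426, 716 and 99 at E15, E19 and pup, 1007, 1354 and 669 with a minimum of 20 UMIs, and 200, 363 and 33 at a log2 ratio of 1.5. All 10 shares of positive cells moved when cells were thinned or 2 UMIs were required, 7 of 15 class levels moved with the averaging or the cells kept, and the nearest 5 genes of a member kept 2 to 4 of the same genes with another added CPM or group size. Depth limits the pup and adult values most: pup fibroblasts held 0 to 10 UMIs of each member per region. With both squamous labels joined, chosen after the values were seen, 3 of 4 esophageal Tbx1 levels stayed within their intervals and that of pups went from 38.5 to 22.6 CPM. No paired analysis was possible because each region and stage is 1 pool and no result comes from a test.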
